A study of Mus musculus with 13 samples.

Results

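Glucose can be broken down or built in the kidney tubule, and the enzymes of both directions were examined here as a set of 32 genes, chosen by name from the 35013 gene symbols of a mouse kidney RNA table. All 32 had counts, and all 32 were among the 16468 genes that passed a filter on low counts. They comprised 5 gluconeogenic genes, 2 genes of fructose and sorbitol metabolism and 25 glycolytic genes. The glycolytic genes were divided by role into irreversible steps (8), enzymes of the regulator fructose 2,6-bisphosphate (4), reversible steps (9) and genes of lactate, glucose entry and the link to glycogen (4). The study compared 3 groups of female mice, using RNA that was tagged with 4-thiouracil by a method aimed at megalin-expressing kidney cells, captured and sequenced.

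Every mouse carried Megalin3'Cre-Ert, a tamoxifen-inducible Cre recombinase made from the megalin promoter, which is active in the proximal tubule. All groups also shared a single floxed allele of Uprt, the enzyme that puts 4-thiouracil into new RNA. In the Spns1 KO group (4 libraries) both alleles of Spns1 were floxed, so that this endolysosomal transporter was to be deleted where the Cre was active. Mice of the WT group (5 libraries) and the FeO group (4 libraries) were littermates that carried Spns1 flox/+ by the methods, while the sample labels gave their genotype as Spns1 WT. FeO mice received 12 mg of iron as iron sucrose on each of 3 days and were euthanized 1 week later. Tamoxifen was given to all groups, ages were not given in the sources used here, and the labels did not say whether each library was 1 mouse, so p-values measure the spread between these libraries. Because the WT libraries served both models, the 2 comparisons are not independent of each other.

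Total counts ran from 23068023 to 71296474 per library, with a median of 29981814. Spns1 itself ranged from 36.6 to 59.0 CPM (counts scaled to a common library size with TMM factors) in the libraries labelled Spns1 KO and from 39.2 to 62.9 CPM in WT, which overlap. A count covers exons that the floxed allele keeps, and the cause of the overlap was not tested, so groups are named by their labels. Captured RNA held markers of many kidney cells. The summed level of 10 proximal tubule markers ran from 3412 to 4761 CPM in WT and from 7259 to 8520 CPM in Spns1 KO, where 6 of the 10 were called upregulated by edgeR. In FeO it was 5439, 5560 and 3698 CPM in replicates 2 to 4, but 2027 CPM in FeO 1. That library held 0.481 of the WT mean for this list, 3.11 times the WT mean for 6 collecting duct markers, 3.29 times for 3 podocyte markers and 1.76 times for 4 loop of Henle markers. In the other FeO libraries these lists stood at 1.16, 1.65, 1.84 and 1.36 times the WT mean. For Spns1 KO, the same lists stood at 1.86, 0.987, 1.23 and 1.42 times the WT mean. There, 4 distal tubule markers stood at 1.77 times and 4 fibroblast and mural markers at 1.61 times. No marker of any list was at 0 in all libraries, and in bulk RNA a change in the number of cells of a type and a change in RNA per cell cannot be told apart. Spns1 KO 4 also stood apart from the other Spns1 KO libraries in many of the enzymes below, so results for the 32 genes are given without it and without FeO 1 where that moved a call, and likewise the comparisons of the wider pathway with WT.

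As background, glycolysis converts glucose to pyruvate through steps that run in either direction and a few that do not. Gluconeogenesis uses the reversible enzymes backwards and bypasses the others with phosphoenolpyruvate carboxykinase, fructose-1,6-bisphosphatase and glucose-6-phosphatase. The proximal tubule is the site of renal gluconeogenesis and takes up filtered glucose and fructose, whereas more distal segments rely more on glycolysis. Hypoxia-inducible factors bind sites with the core ACGTG in many glycolytic promoters, and factors of the CREB family bind sites that hold TGACG, as in the promoter of Pck1.

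Promoter stretches with these cores are shown for the genes whose counts are described most closely below, to place the letters beside the values. Each is from the RefSeq table for GRCm38.p6, 5′ to 3′ on the strand of the gene, with the core or its reverse complement in capitals.
Pgk1 (chrX:106186930-106186974, plus strand, first of 2 matches, 150 bases before the start): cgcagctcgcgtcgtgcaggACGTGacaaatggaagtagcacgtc
Pgk1 (chrX:106186949-106186993, plus strand, second match, 131 bases before the start): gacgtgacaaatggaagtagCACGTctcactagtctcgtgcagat
Pgam1 (chr19:41911737-41911781, plus strand, 114 bases before the start): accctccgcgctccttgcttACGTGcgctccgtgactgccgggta
Aldoa (chr7:126799356-126799400, minus strand, 126 bases before the start): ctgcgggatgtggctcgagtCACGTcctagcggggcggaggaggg
Gapdh (chr6:125165724-125165751, minus strand, 42 bases after the start): tactcgcggctttacgggtgCACGTagc
Slc2a1 (chr4:119108689-119108733, plus strand, 36 bases before the start): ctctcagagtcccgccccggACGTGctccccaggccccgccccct
Pck1 (chr2:173152963-173153007, plus strand, TGACG as its reverse complement, 90 bases before the start): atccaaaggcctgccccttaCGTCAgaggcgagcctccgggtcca
Slc37a4 (chr9:44396865-44396909, plus strand, TGACG, first of 2 matches, 214 bases before the start): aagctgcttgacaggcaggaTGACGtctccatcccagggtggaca

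Within 250 bases before to 50 bases after the start, ACGTG on either strand occurred in 12 of the 25 glycolytic promoters (48%), in 0 of the 5 gluconeogenic ones and in 23.8% of the 12179 promoters of genes tested that the table held. Among the reversible steps it occurred in 5 of 9, namely Aldoa, Aldoc, Gapdh, Pgk1 and Pgam1. TGACG occurred in 2 of 5 gluconeogenic promoters (Pck1 and Slc37a4), in 6 of 25 glycolytic ones and in 28.8% of all. The E-box CACGTG, which contains ACGTG on both strands, was found in Khk, Pfkfb2 and Pfkfb3 (9.38% of these promoters and 9.38% of all). These matches describe the letters only, and no binding was measured.

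In WT the gluconeogenic direction was represented by the most abundant gene of the set. Levels of different genes were compared per transcript length, as TPM, computed here by dividing counts by transcript length and scaling each library to the same sum. Pck1, which makes phosphoenolpyruvate from oxaloacetate, stood at 6905 ± 1765 TPM (SD, n = 5) and G6pc, the catalytic subunit of glucose-6-phosphatase, at 811 ± 101 TPM. The 5 WT values of the 2 genes did not overlap. Gapdh, which oxidizes glyceraldehyde 3-phosphate, followed at 614 ± 48.2 TPM and Ldhb, the lactate dehydrogenase subunit B, at 486 ± 56.5 TPM, with ranges that overlapped slightly. Fbp1 (168 ± 30.8 TPM) and Slc37a4 (142 ± 18.1 TPM) lay in the middle of the order among Pgk1, Pkm, Gpi1 and Pgam1, neighbours whose ranges overlapped. Pck2, the mitochondrial carboxykinase, was near the bottom at 10.7 ± 2.12 TPM.

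Isoforms of the same step differed widely in WT. Among hexokinases, Hk1 stood at 89.8 ± 39.8 TPM, Hk2 at 4.53 ± 1.84 TPM and Hk3 at 0.591 ± 0.189 TPM, without overlap. Among phosphofructokinases, Pfkp stood at 96.0 ± 29.6 TPM, above Pfkl (23.6 ± 3.57 TPM) and Pfkm (20.5 ± 4.11 TPM), whose ranges overlapped. Pkm was at 164 ± 35.6 TPM and Pklr, the pyruvate kinase of liver and red cells, at 14.7 ± 1.53 TPM. Aldoa was at 319 ± 59.9 TPM and Aldoc at 4.71 ± 1.45 TPM.

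**Figure D1:**
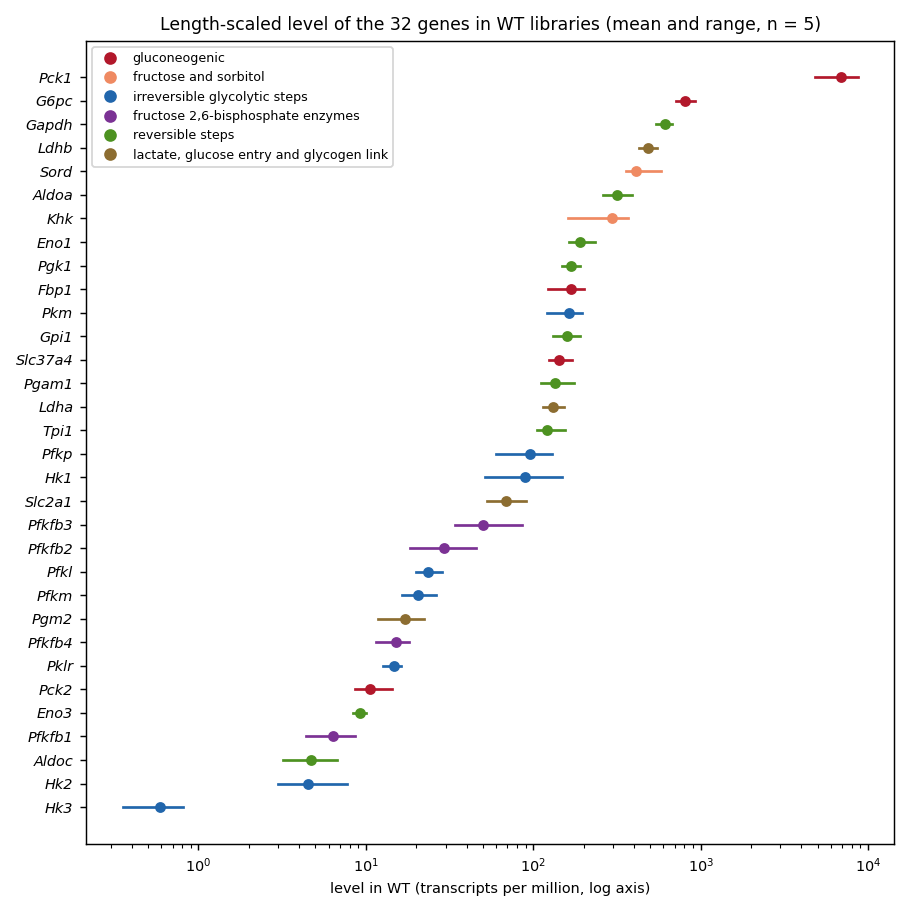
Level of each of the 32 genes in the 5 WT libraries in TPM on a log axis, ordered from highest to lowest and coloured by role, with points for means and lines for the lowest and highest library. Pck1 is at the top at 6905 and Hk3 at the bottom at 0.591.

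Relative to WT, 13 of the 32 genes were upregulated in Spns1 KO and 2 downregulated, and 17 were upregulated in FeO and 3 downregulated. Calls required an adjusted p under 0.05 (quasi-likelihood test of edgeR, Benjamini-Hochberg over all genes tested) and a log2 fold change (log2FC) above 0.5 or below -0.5. Over all 16468 genes, 14% were upregulated and 7.55% downregulated in Spns1 KO, and 22.4% were upregulated and 19.7% downregulated in FeO. The set's median log2FC was 0.39 for Spns1 KO and 0.67 for FeO, beside -0.045 and -0.011 for all genes. It was above 0 for 20 of the 32 genes in Spns1 KO, for 27 in FeO and for 12 in Spns1 KO against FeO, beside 46.8%, 49.5% and 51.9% of all genes. By list, the 5 gluconeogenic genes had a median of 0.27 in Spns1 KO and 0.02 in FeO, with 1 gene upregulated in each. The 25 glycolytic genes had medians of 0.48 (11 upregulated, 2 downregulated) and 0.75 (16 upregulated, 3 downregulated). The glycolytic list includes the 9 reversible steps, which gluconeogenesis also uses. These medians therefore do not give a direction of the pathway. For the 8 irreversible steps alone the medians were -0.13 in Spns1 KO and 0.73 in FeO. Of the 32 genes, 1, Slc2a1, was called in opposite directions in the comparisons with WT, which share the WT libraries. The 7 genes called in neither model were Pck1, Pck2, G6pc, Khk, Hk2, Pfkfb1 and Pgm2.

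**Figure D2:**
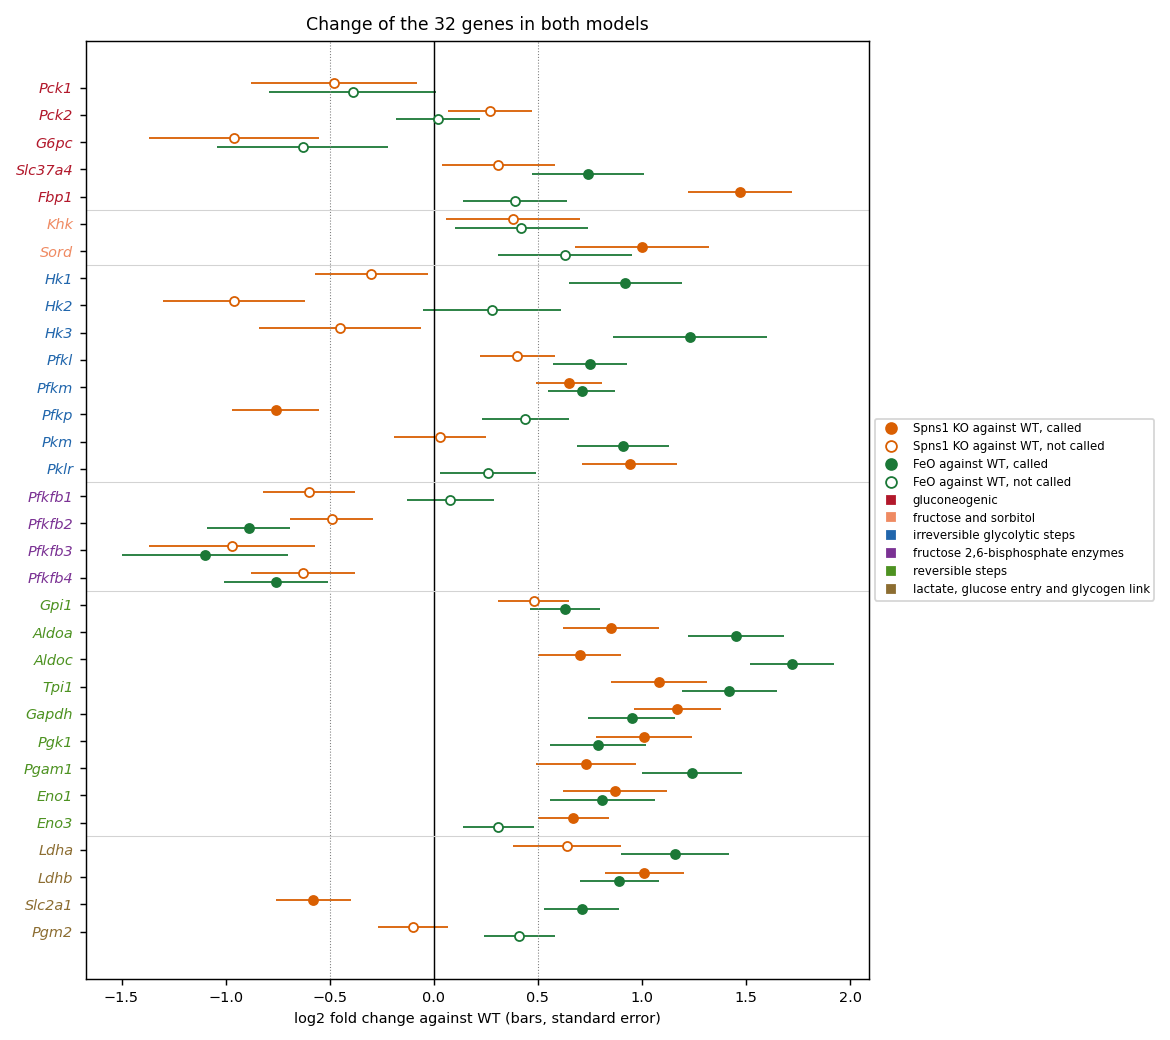
Log2FC against WT of each gene in Spns1 KO (orange) and FeO (green), with standard errors from edgeR as bars, genes grouped and coloured by role, filled points for called genes and dotted lines at 0.5 in either direction. All 9 reversible steps lie right of 0 in both models, and 3 of the 4 Pfkfb genes lie left of 0 in both.

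Of the gluconeogenic genes, Fbp1 rose in Spns1 KO and Slc37a4 in FeO. Fbp1 encodes fructose-1,6-bisphosphatase, the enzyme opposing phosphofructokinase (chromosome 13 from 62864753 to 62888282, GRCm38). Its level was 321, 349, 361 and 190 CPM in Spns1 KO 1 to 4, against 154, 137, 88.2, 95.1 and 75.5 CPM in WT 1 to 5. FeO 1 to 4 held 95.2, 148, 188 and 143 CPM of Fbp1. All Spns1 KO libraries lay above all others, while FeO overlapped with WT. The log2FC was 1.47 in Spns1 KO (standard error 0.25, adjusted p = 0.00124), 0.39 in FeO (standard error 0.25, adjusted p = 0.221) and 1.09 between Spns1 KO and FeO (standard error 0.27, adjusted p = 0.0164). The last call was lost without FeO 1 (log2FC 0.94, adjusted p = 0.0516).

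G6pc releases free glucose as the last enzyme of gluconeogenesis (chromosome 11 from 101367561 to 101377903). It measured 480, 391, 460 and 413 CPM in Spns1 KO 1 to 4, and 933, 849, 713, 813 and 931 CPM in WT 1 to 5. Every Spns1 KO library lay below every WT library, as was the case for 9.38% of all genes. The log2FC of -0.96 (standard error 0.41) nevertheless did not pass the test (adjusted p = 0.1), in a fit that shared its estimate of spread with FeO. FeO 1 to 4 measured 94.5, 977, 625 and 490 CPM, a range that took in every WT value. Without FeO 1 the comparison of Spns1 KO with WT passed (-0.94, adjusted p = 0.00454), as it did with DESeq2 and in a fit of only Spns1 KO and WT. It passed under no other alternative, with an adjusted p of up to 0.204. The log2FC lay between -1.09 and -0.90 over all alternatives. In FeO the value was -0.63 (adjusted p = 0.211), -0.26 (adjusted p = 0.348) without FeO 1 and -1.06 (adjusted p = 0.0429) without FeO 2.

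Pck1 varied widely within each group (chromosome 2 from 173153048 to 173159273). Its level was 3867, 7017, 5087 and 7668 CPM in Spns1 KO, 11967, 10840, 5448, 4702 and 8396 CPM in WT, and 2162, 7921, 10290 and 4941 CPM in FeO. The groups overlapped, and the log2FC values were -0.48 for Spns1 KO and -0.39 for FeO (standard error 0.40 in each, adjusted p = 0.397 and 0.447). Without FeO 1 the FeO value was -0.08. Slc37a4, which carries glucose 6-phosphate to the phosphatase, measured 179, 268, 374 and 146 CPM in FeO and 114 to 167 CPM in WT. Its log2FC in FeO was 0.74 (standard error 0.27, adjusted p = 0.0333) although 1 FeO library lay inside the WT range, and the call was lost without FeO 2, FeO 3, WT 2, WT 3 or WT 4 (log2FC values of 0.45 to 0.75, adjusted p = 0.0562 to 0.163). The call of Slc37a4 was also lost with limma-voom (0.67, adjusted p = 0.0516) and with a trend on length and GC content of transcripts removed (0.59, adjusted p = 0.0834). In Spns1 KO it was 0.31 (adjusted p = 0.404). Pck2 held 14.7 to 25.9 CPM in Spns1 KO, 12.4 to 20.2 CPM in WT and 13.4 to 20.2 CPM in FeO, and none of its comparisons passed.

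The 2 genes of fructose and sorbitol metabolism differed in their calls. Sord, which oxidizes sorbitol to fructose, measured 1191, 762, 993 and 384 CPM in Spns1 KO 1 to 4 and 336 to 503 CPM in WT. Replicates 1 to 3 lay above WT and Spns1 KO 4 inside the WT range. The log2FC was 1.00 (standard error 0.32, adjusted p = 0.0352), and 1.24 (adjusted p = 0.00472) without Spns1 KO 4, but the call was lost without any one of Spns1 KO 1 to 3, WT 1 to 3 or WT 5 (0.78 to 1.04, adjusted p = 0.0548 to 0.136). It was also lost with limma-voom (0.89, adjusted p = 0.0577), with the length and GC trend removed (0.88, adjusted p = 0.0603) and with the replicate number as a block (0.85, adjusted p = 0.126). FeO measured 392, 755, 1030 and 400 CPM, with a log2FC of 0.63 (adjusted p = 0.119). Of the 31-base sequences of Sord, 35.9% also occur in the gene model Gm6652, so its count is uncertain. Khk, ketohexokinase, the entry enzyme for fructose, was not called in either model, with 251 to 293 CPM in Spns1 KO, 94.1 to 300 CPM in WT and 187 to 482 CPM in FeO.

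**Figure D3:**
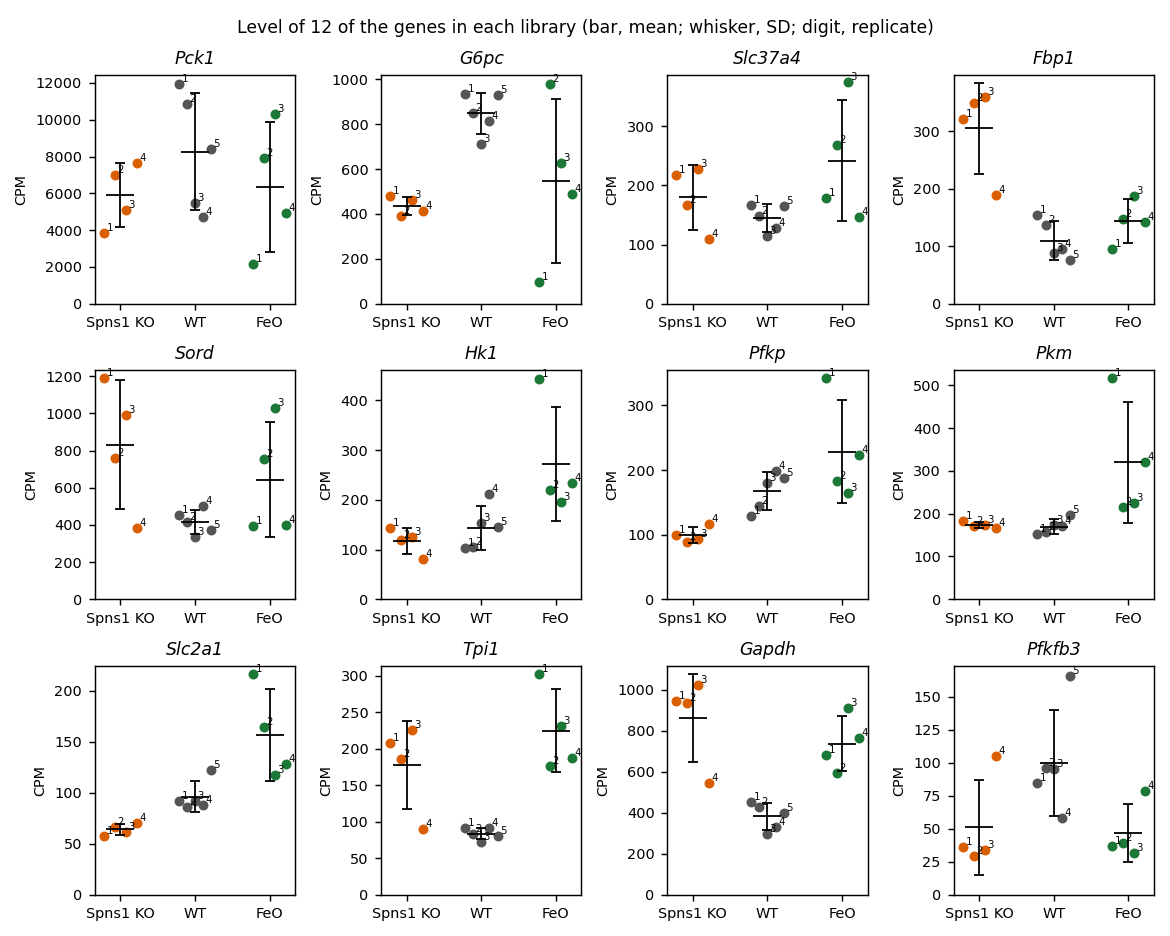
Level of 12 of the genes in each library in CPM on linear axes from 0, with library numbers beside the points, horizontal bars for means and whiskers for SD. G6pc and Slc2a1 in Spns1 KO lie below all WT libraries and Fbp1 above them, while FeO 1 is lowest of all libraries for Pck1 and G6pc and highest for Hk1, Pfkp, Pkm, Slc2a1 and Tpi1.

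Of the irreversible glycolytic steps, more were upregulated in FeO than in Spns1 KO. In FeO 5 of 8 were upregulated, all 8 had a log2FC above 0, and the median was 0.73. In Spns1 KO 2 were upregulated and 1 downregulated, with a median of -0.13. Compared directly, 5 of the 8 were lower in Spns1 KO than in FeO, where 8.1% of all genes were lower and 6.76% higher. Pklr, with a log2FC of 0.68 between the models, did not pass (adjusted p = 0.0668), but did without Spns1 KO 4 (0.82, adjusted p = 0.0415). Spns1 KO was lower than FeO for 7 of all 32 genes and higher for Fbp1 alone. All Spns1 KO libraries lay below all FeO libraries for 8 of the 32 genes and above them for 2, where 9.1% and 8.25% of all genes did so.

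Hk1, the hexokinase of most tissues, phosphorylates glucose on entry. It measured 143, 118, 125 and 80.8 CPM in Spns1 KO, 103, 106, 154, 212 and 144 CPM in WT, and 443, 219, 195 and 235 CPM in FeO. The log2FC was 0.92 in FeO (standard error 0.27, adjusted p = 0.012), -0.30 in Spns1 KO (adjusted p = 0.437) and -1.22 between Spns1 KO and FeO (standard error 0.29, adjusted p = 0.013). Without FeO 1 the call of Hk1 in FeO was lost (0.61, adjusted p = 0.0546), while the difference between the models stayed called (-0.88, adjusted p = 0.0426). Hk2, the insulin-responsive hexokinase, measured 6.99, 2.25, 8.02 and 4.88 CPM in Spns1 KO, below the 8.44 to 17.8 CPM of WT, with a log2FC of -0.96 that did not pass (standard error 0.34, adjusted p = 0.0508). It was lower than in FeO (-1.23, standard error 0.35, adjusted p = 0.0305), a call that was lost without FeO 1, Spns1 KO 2 or Spns1 KO 4 (-1.17 to -0.97, adjusted p = 0.0637 to 0.0919) and in a fit of those 2 groups alone (-1.24, adjusted p = 0.0637). The comparison of Hk2 with WT passed without FeO 1, FeO 2 or Spns1 KO 3 (-1.18 to -0.94, adjusted p = 0.0457 to 0.0492). It also passed with DESeq2 (-0.96, adjusted p = 0.0193), limma-voom (-1.01, adjusted p = 0.0386), edgeR RLE factors (-0.96, adjusted p = 0.048), upper-quartile factors (-0.98, adjusted p = 0.0474) and library totals alone (-1.11, adjusted p = 0.0313). Hk3, a hexokinase of myeloid cells, averaged 35.2 counts per library and stood at 1.41, 1.20, 3.55 and 1.72 CPM in FeO against 0.441 to 1.29 CPM in WT. Hk3 rose by 1.23 on the log2 scale in FeO (standard error 0.37, adjusted p = 0.0155), a call lost without FeO 3 (0.79, adjusted p = 0.0867) or with the replicate number as a block (1.11, adjusted p = 0.0754). The summed level of 6 immune markers was 65.2, 29.6, 80.6 and 114 CPM in FeO 1 to 4 against 15.4 to 26.2 CPM in WT. None of the 6 immune markers was at 0 in all libraries, 2 were upregulated in FeO, and their part in the Hk3 result was not tested.

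The phosphofructokinases, which commit fructose 6-phosphate to glycolysis, differed by isoform in Spns1 KO. Pfkp, the most abundant isoform in WT (chromosome 13 from 6579768 to 6648777), measured 99.6, 87.9, 93.6 and 116 CPM in Spns1 KO, 129, 144, 179, 198 and 188 CPM in WT, and 342, 183, 165 and 223 CPM in FeO. All Spns1 KO libraries lay below all others. It fell by 0.76 on the log2 scale against WT (standard error 0.21, adjusted p = 0.0191), a call lost without Spns1 KO 1, Spns1 KO 2, Spns1 KO 3 or WT 3 (-0.76 to -0.70, adjusted p = 0.0524 to 0.0673). It was also lower than in FeO, by a log2FC of -1.20 (standard error 0.22, adjusted p = 0.00503). In FeO, Pfkp was at 0.44 (adjusted p = 0.0924), and passed without FeO 3 (0.57, adjusted p = 0.045) or with the length and GC trend removed (0.63, adjusted p = 0.0211). Pfkm, the muscle isoform, instead measured 42.7, 40.1, 43.6 and 32.2 CPM in Spns1 KO, above the 23.6 to 27.7 CPM of WT, as did FeO with 57.2, 32.7, 36.2 and 39.2 CPM. Its log2FC values were 0.65 for Spns1 KO and 0.71 for FeO (standard error 0.16 in each, adjusted p = 0.0104 and 0.00305), and the call of Pfkm in Spns1 KO was lost with library totals alone (0.52, adjusted p = 0.0555). Pfkl, the liver isoform, rose in FeO (0.75, standard error 0.18, adjusted p = 0.00352), and its 42.6 to 58.0 CPM in Spns1 KO lay above the 36.8 to 39.3 CPM of WT without passing the test (0.40, adjusted p = 0.107).

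Of the pyruvate kinases, which complete glycolysis, Pkm was called in FeO and Pklr in Spns1 KO. The difference between the models passed for Pkm, though not under every alternative, and did not pass for Pklr (adjusted p = 0.0668). Pkm measured 517, 215, 225 and 321 CPM in FeO, all above the 152 to 197 CPM of WT, and 167 to 182 CPM in Spns1 KO, inside the WT range. The log2FC was 0.91 in FeO (standard error 0.22, adjusted p = 0.00418) and 0.03 in Spns1 KO (standard error 0.22, adjusted p = 0.928). Spns1 KO was lower than FeO by a log2FC of -0.88 (adjusted p = 0.022), a call lost without FeO 1 (-0.54, adjusted p = 0.0635) or Spns1 KO 2 (-0.88, adjusted p = 0.0544) and in a fit of those 2 groups alone (-0.89, adjusted p = 0.0765). Pklr measured 34.0, 35.2, 49.9 and 25.1 CPM in Spns1 KO, above the 15.2 to 22.9 CPM of WT, and 24.6, 23.4, 28.2 and 13.7 CPM in FeO. It rose in Spns1 KO (0.94, standard error 0.23, adjusted p = 0.00907) and was at 0.26 in FeO (adjusted p = 0.362). The summed level of 5 erythroid markers was 51.8 to 175 CPM in Spns1 KO, 26.3 to 238 CPM in FeO and 9.40 to 36.5 CPM in WT, with 5 of 5 upregulated in Spns1 KO and 4 of 5 in FeO, none at 0 in all libraries, and their part in the Pklr result was not tested. Of the 31-base sequences of Pklr, 21.1% also lie in its neighbour Hcn3, and of Pkm 34.7% lie in other genes.

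The Pfkfb enzymes make and remove fructose 2,6-bisphosphate, which activates phosphofructokinase and inhibits fructose-1,6-bisphosphatase. In FeO 3 of 4 fell, and in Spns1 KO all 4 had log2FC values below 0, from -0.97 to -0.49, of which none passed edgeR's test. Pfkfb2 measured 31.5, 30.6, 25.8 and 28.4 CPM in FeO, below the 42.1 to 74.4 CPM of WT, and fell by 0.89 on the log2 scale (standard error 0.20, adjusted p = 0.00274). Pfkfb3, the inducible isoform, measured 37.0, 39.0, 31.4 and 79.0 CPM in FeO, 84.6, 95.8, 95.5, 57.9 and 166 CPM in WT, and 35.9, 29.6, 33.6 and 105 CPM in Spns1 KO. The first 3 libraries of each model lay below WT and the last of each inside its range. Its log2FC was -1.10 in FeO (standard error 0.40, adjusted p = 0.0347), and the call was lost without any one of FeO 1 to 3, WT 2, WT 3 or WT 5 (-1.12 to -0.83, adjusted p = 0.0516 to 0.0996) or with the length and GC trend removed (-0.85, adjusted p = 0.0975). In Spns1 KO it was -0.97 (adjusted p = 0.0871), and -1.60 (adjusted p = 0.00264) without Spns1 KO 4. Pfkfb4 was at -0.76 in FeO (standard error 0.25, adjusted p = 0.0243), a call lost without FeO 1, FeO 3, FeO 4, WT 1, WT 2 or WT 5 (-0.71 to -0.61, adjusted p = 0.052 to 0.091). In Spns1 KO, Pfkfb4 was at -0.63 (adjusted p = 0.0802) and Pfkfb2 at -0.49 (adjusted p = 0.0802), and both passed without Spns1 KO 4 (-0.80 and -0.65, adjusted p = 0.0312 and 0.0198). Pfkfb1 held 2.62 to 3.77 CPM in Spns1 KO, below the 3.98 to 6.22 CPM of WT, without passing (-0.60, adjusted p = 0.0569). Leaving out FeO 1 brought Pfkfb1 past the test in Spns1 KO (-0.58, adjusted p = 0.0437), and leaving out FeO 2 did so for Pfkfb4 (-0.61, adjusted p = 0.0468). Unadjusted p-values in Spns1 KO were 0.0144, 0.0238, 0.0271 and 0.0238 for Pfkfb1 to Pfkfb4. DESeq2 and limma-voom called Pfkfb1 (-0.60 in each, adjusted p = 0.0297 and 0.0466) and Pfkfb3 (-0.98 and -1.10, adjusted p = 0.0385 and 0.0432) downregulated in Spns1 KO. Pfkfb1 also passed in a fit of Spns1 KO and WT alone (-0.58, adjusted p = 0.0428) and with the length and GC trend removed (-0.83, adjusted p = 0.019). With library totals alone, Pfkfb1 (-0.74), Pfkfb2 (-0.63) and Pfkfb4 (-0.76) passed (adjusted p = 0.0441, 0.0436 and 0.0473).

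The reversible steps rose in both models. Of these 9 enzymes, 8 were upregulated in each model, and all 9 had log2FC values above 0 in both, with medians of 0.85 for Spns1 KO and 0.95 for FeO. In Spns1 KO the exception was Gpi1, glucose-6-phosphate isomerase, whose log2FC of 0.48 was under the limit of size (adjusted p = 0.0492), though not without Spns1 KO 4 (0.59, adjusted p = 0.0113). In FeO it was Eno3, the muscle enolase, at 0.31 (adjusted p = 0.146). All libraries of FeO lay above all of WT for 7 of the 9, where 16.9% of all genes did so, and all of Spns1 KO for 4 of the 9, where 13.1% did.

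Gapdh (chromosome 6 from 125161715 to 125166467) measured 947, 937, 1024 and 543 CPM in Spns1 KO, 454, 429, 297, 332 and 397 CPM in WT, and 681, 592, 912 and 765 CPM in FeO. Every library of either model lay above every WT library, and Spns1 KO 4 lay apart from the other 3 of its group. The log2FC was 1.17 for Spns1 KO (standard error 0.21, adjusted p = 0.00161) and 0.95 for FeO (standard error 0.21, adjusted p = 0.00265). Tpi1, triosephosphate isomerase, measured 207, 186, 226 and 90.0 CPM in Spns1 KO, 72.4 to 91.3 CPM in WT, and 302, 177, 232 and 188 CPM in FeO. Its log2FC was 1.08 for Spns1 KO (standard error 0.23, adjusted p = 0.00476) and 1.42 for FeO (standard error 0.23, adjusted p = 0.000566). Spns1 KO 4 thus lay inside the WT range for Tpi1, as it did for Aldoa, Aldoc and Eno1, and below it for Pgam1.

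The aldolases Aldoa and Aldoc, which cleave fructose 1,6-bisphosphate, had the largest log2FC values of the 32 genes in FeO. Aldoc measured 23.5, 13.1, 17.2 and 19.1 CPM in FeO, 4.60 to 6.92 CPM in WT and 10.6, 9.98, 8.88 and 6.49 CPM in Spns1 KO. It rose 3.29-fold in FeO (log2FC 1.72, standard error 0.20, adjusted p = 0.000313) and 1.62-fold in Spns1 KO (0.70, standard error 0.20, adjusted p = 0.0228), and the difference between the models was called (-1.02, standard error 0.21, adjusted p = 0.00844). Aldoa measured 839, 414, 513 and 499 CPM in FeO, 421, 392, 456 and 223 CPM in Spns1 KO and 177 to 235 CPM in WT. The log2FC values of Aldoa were 1.45 in FeO and 0.85 in Spns1 KO (standard error 0.23 in each, adjusted p = 0.00051 and 0.0161). In Spns1 KO the call of Aldoa was lost without Spns1 KO 1 or Spns1 KO 3 (0.79 and 0.74, adjusted p = 0.0548 and 0.0639) and that of Aldoc without any one of Spns1 KO 1 to 3, WT 1 or WT 2 (0.61 to 0.71, adjusted p = 0.0535 to 0.0837). That of Aldoc was also lost with library totals alone (0.56, adjusted p = 0.0802) and with the replicate block (0.73, adjusted p = 0.0554). The annotation gives the symbol Aldoa to 2 coding genes, and 13.5% of its 31-base sequences occur in other genes.

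The later reversible steps followed. Pgk1, phosphoglycerate kinase, which yields ATP, measured 285, 295, 325 and 174 CPM in Spns1 KO, 118 to 147 CPM in WT, and 265, 124, 282 and 257 CPM in FeO, where FeO 2 lay inside the WT range. It rose by 1.01 in Spns1 KO and 0.79 in FeO on the log2 scale (standard error 0.23 in each, adjusted p = 0.00617 and 0.0114). Pgam1, phosphoglycerate mutase, rose by 0.73 and 1.24 (standard error 0.24 in each, adjusted p = 0.0409 and 0.00131), and the call of Pgam1 in Spns1 KO was lost without any one of Spns1 KO 1 to 3, WT 1 to 3 or WT 5 (0.57 to 0.74, adjusted p = 0.0631 to 0.155), with limma-voom (0.65, adjusted p = 0.0637), with library totals alone (0.60, adjusted p = 0.0829) and with the replicate block (0.65, adjusted p = 0.0966). Eno1, the widespread enolase, rose by 0.87 and 0.81 (standard error 0.25 in each, adjusted p = 0.0202 and 0.0154). The call of Eno1 in FeO was lost without FeO 1 (0.61, adjusted p = 0.0587), and that in Spns1 KO without any one of Spns1 KO 1 to 3 or WT 3 (0.72 to 0.85, adjusted p = 0.0522 to 0.0818). Eno3 measured 9.18 to 11.4 CPM in Spns1 KO, above the 4.80 to 7.80 CPM of WT (0.67, standard error 0.17, adjusted p = 0.0117). Gpi1 rose in FeO (0.63, adjusted p = 0.00721), but stood at 0.48 (adjusted p = 0.0237), under the limit of size, without FeO 1. Shares of 31-base sequences found in other genes were 54.7% for Pgk1, 37.1% for Pgam1, 28.5% for Eno1, 28.1% for Gapdh, 21.6% for Gpi1 and 10.5% for Tpi1, so that these counts are uncertain. Correcting each library for a trend with length and GC content of transcripts ended the calls of Aldoa (0.42), Pgam1 (0.43), Eno1 (0.61) and Eno3 (0.34) in Spns1 KO and of Gapdh (0.48), Pgk1 (0.45) and Eno1 (0.56) in FeO.

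**Figure D4:**
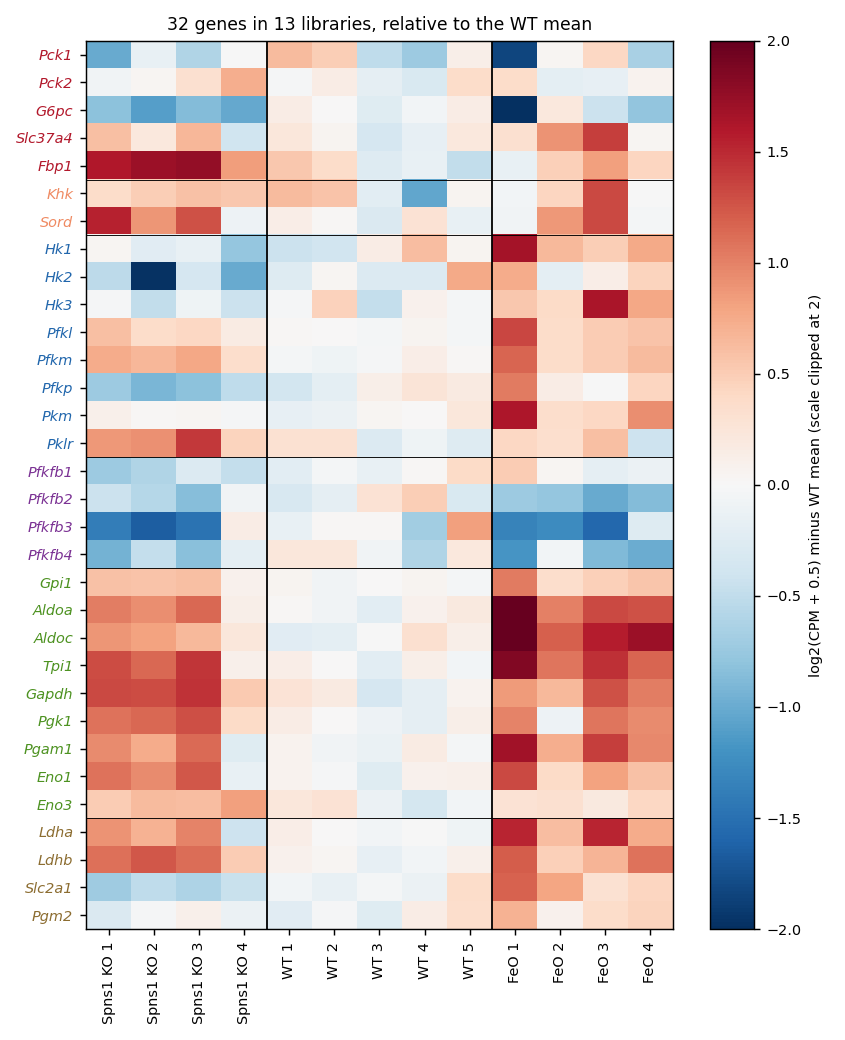
Colour shows log2(CPM + 0.5) minus the WT mean for each gene (rows, grouped by role) in each of the 13 libraries (columns), clipped at 2 in either direction, which 3 values exceed. The reversible steps are red in Spns1 KO 1 to 3 and in FeO (except Pgk1 in FeO 2), and near white in Spns1 KO 4 for Tpi1, Aldoa and Eno1.

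Lactate dehydrogenases differed in their calls by subunit. Ldhb, the subunit that favours lactate oxidation, measured 586, 645, 592 and 388 CPM in Spns1 KO, 634, 379, 438 and 581 CPM in FeO and 245 to 293 CPM in WT, with both models above WT in every library. Its log2FC was 1.01 for Spns1 KO and 0.89 for FeO (standard error 0.19 in each, adjusted p = 0.00208 and 0.00203). Ldha, the subunit that favours lactate formation, measured 287, 154, 287 and 167 CPM in FeO, 187, 162, 200 and 74.8 CPM in Spns1 KO and 94.2 to 109 CPM in WT. It rose in FeO (1.16, standard error 0.26, adjusted p = 0.00253), whereas in Spns1 KO, where replicate 4 lay below WT and the others above, it did not pass (0.64, standard error 0.26, adjusted p = 0.0813). Without Spns1 KO 4 it passed (0.87, adjusted p = 0.00465), as it did in a fit of Spns1 KO and WT alone (0.66, adjusted p = 0.047). With the trend on length and GC content removed, Ldhb was at 0.35 in FeO and no longer called. Shared 31-base sequences made up 33% of Ldhb and 19.6% of Ldha.

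Slc2a1, the glucose transporter GLUT1 of the basolateral membrane, was the gene called in opposite directions (chromosome 4 from 119108711 to 119137983). It measured 57.7, 66.6, 61.9 and 70.1 CPM in Spns1 KO, 91.7, 85.6, 92.2, 87.8 and 123 CPM in WT, and 217, 165, 118 and 128 CPM in FeO. All Spns1 KO libraries lay below all WT libraries, and 3 of the 4 FeO libraries above. It fell by 0.58 on the log2 scale in Spns1 KO (standard error 0.18, adjusted p = 0.0312) and rose by 0.71 in FeO (standard error 0.18, adjusted p = 0.00567). The difference between the models was -1.29 (standard error 0.19, adjusted p = 0.00215), and it stayed called without FeO 1 (-1.09, adjusted p = 0.00485). The call in Spns1 KO was lost without any one of Spns1 KO 1 to 3, WT 3 or WT 5 (-0.60 to -0.46, adjusted p = 0.0696 to 0.0994), without the filter on low counts (-0.52, adjusted p = 0.0736) and with the replicate number as a block (-0.48, adjusted p = 0.101). Pgm2, of the phosphoglucomutase family, was called in neither model, with -0.10 in Spns1 KO and 0.41 in FeO (adjusted p = 0.707 and 0.0596). In FeO it passed without FeO 2 or WT 5 (0.52 and 0.53, adjusted p = 0.024 and 0.0236) and with the replicate block (0.51, adjusted p = 0.0483). The annotation used here places Pgm2 on chromosome 5 and Pgm1 on chromosome 4. These symbols were exchanged between annotation releases, so which gene was counted under each, and whether Pgm2 is the link to glycogen, is uncertain.

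As a measure of balance between the 2 lists, the mean log2 CPM of the 25 glycolytic genes was subtracted from that of the 5 gluconeogenic genes in each library. Because the glycolytic list includes reversible steps that gluconeogenesis also uses, this balance does not give a direction of the pathway. The difference was 2.83, 2.70, 2.30, 2.21 and 2.44 in WT, and 2.26, 2.47, 2.39 and 2.57 in Spns1 KO. In FeO it was 0.69, 2.45, 2.36 and 1.77. Spns1 KO lay inside the WT range (2.42 ± 0.13, SD, n = 4, against 2.50 ± 0.26, SD, n = 5), and FeO (1.82 ± 0.81, SD, n = 4) overlapped with it. The glycolytic mean was higher in all FeO libraries (5.93 to 6.52) than in all WT libraries (5.49 to 5.73), while the gluconeogenic means overlapped between all 3 groups. In Spns1 KO the glycolytic mean ran from 5.55 to 5.96 and overlapped with both WT and FeO. The mean of the 8 irreversible steps alone ran from 4.63 to 5.05 in Spns1 KO. It ran from 4.75 to 5.01 in WT and from 5.22 to 6.0 in FeO. The lowest balance was that of FeO 1, in which the proximal tubule markers were also lowest and the collecting duct and podocyte markers highest. The mean log2FC of gluconeogenic minus glycolytic genes was -0.59 in FeO, -0.30 without FeO 1, and -0.09 in Spns1 KO. The part of cell makeup in these values was not tested.

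**Figure D5:**
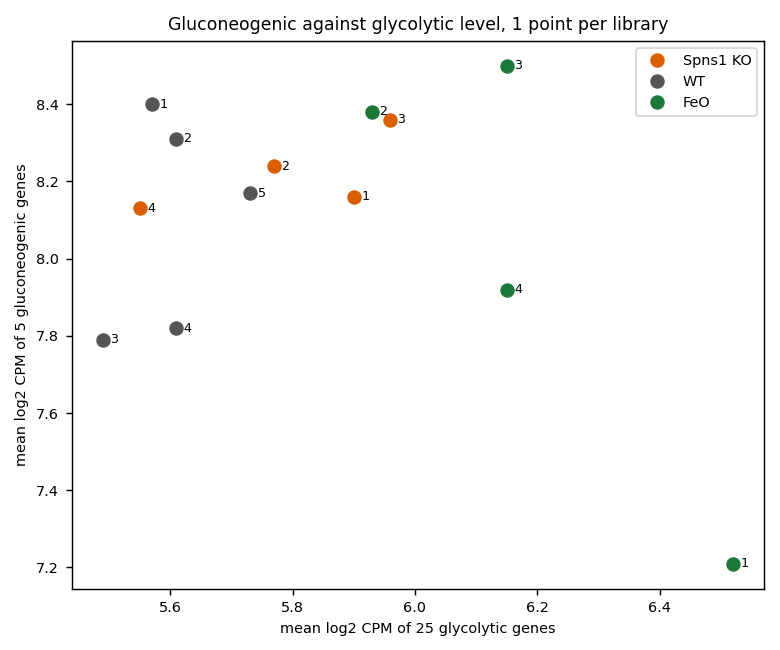
Mean log2 CPM of the 5 gluconeogenic genes against that of the 25 glycolytic genes, 1 point per library with its number, coloured by group. FeO points span 5.93 to 6.52 on the horizontal axis, and Spns1 KO 3 (5.96) lies right of FeO 2 (5.93). FeO 1 is lowest on the vertical axis at 7.21.

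The wider pathway was described with 82 further genes in the table, of which 77 were tested. Of these, 17 were upregulated and 3 downregulated in Spns1 KO, and 29 upregulated and 15 downregulated in FeO. These are 22.1% and 3.9% of the 77 in Spns1 KO, beside 14% and 7.55% of all genes, and 37.7% and 19.5% in FeO, beside 22.4% and 19.7%, so the share downregulated in FeO lay near that of all genes. Counts of the smaller lists that follow stand beside the same shares of all genes. Without Spns1 KO 4, 26 of the 77 were upregulated and 11 downregulated in Spns1 KO, where 18% and 16.1% of all genes were. Without FeO 1, 24 were upregulated and 10 downregulated in FeO, where 19.7% and 14% of all genes were, and 33 of the 44 calls were kept.

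Among 9 tested partners of gluconeogenesis, 4 rose and 1 fell in Spns1 KO and 6 rose in FeO. The malate dehydrogenase Mdh2 rose by 1.18 and 1.24 on the log2 scale in Spns1 KO and FeO, while Mdh1 rose by 0.89 in Spns1 KO and stood at 0.47 in FeO without passing. Fbp2, the muscle bisphosphatase, rose by 1.54 and 0.69, and G6pc3, the widespread glucose-6-phosphatase, by 0.72 and 1.16. Got1, the cytosolic aspartate aminotransferase, was called in opposite directions, at -0.93 in Spns1 KO and 0.73 in FeO, though the call in FeO was lost without FeO 1 (0.42, adjusted p = 0.0972). Got2 and Gpd1 rose in FeO by 0.81 and 1.27, and without Spns1 KO 4 also passed in Spns1 KO (0.85 and 1.10, adjusted p = 0.0025 and 0.00354).

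Among 5 partners of fructose and polyol metabolism, 1 rose in Spns1 KO and 4 in FeO. Tkfc, the triokinase, rose in both (0.94 and 0.59, the latter not called without FeO 1 at an adjusted p of 0.0779), and the aldose reductase Akr1b3 (1.62) and the fructose transporter Slc2a5 (1.37) rose in FeO. Among 8 pentose phosphate enzymes, 4 rose in Spns1 KO and 6 in FeO. Pgls, Tkt and Taldo1 rose in both, by 0.56, 0.76 and 0.93 for Spns1 KO and by 0.64, 0.83 and 1.28 for FeO. Rpia rose in Spns1 KO (0.68), and G6pdx, the first enzyme of the oxidative branch, Pgd and Rpe rose in FeO (1.20, 1.04 and 0.59). The call of Rpe in FeO was lost without FeO 1 (0.50, adjusted p = 0.1), while Pgd and Rpe passed in Spns1 KO without Spns1 KO 4 (0.88 and 0.69, adjusted p = 0.0033 and 0.0191).

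Of 11 paralogs and side enzymes of glycolysis that were tested, 2 rose and 1 fell in Spns1 KO, and 4 rose in FeO. Pgam2, the muscle mutase, rose in both (0.98 and 2.10). Ldhd, which oxidizes D-lactate, rose in Spns1 KO (1.48), where Tigar, which lowers fructose 2,6-bisphosphate, fell (-0.53). Bpgm and Pgp rose in FeO (0.64 and 0.93), and Bpgm passed in Spns1 KO without Spns1 KO 4 (0.54, adjusted p = 0.00529). Of 11 glycogen enzymes, 2 rose in Spns1 KO, Gys2 (1.00) and the lysosomal glucosidase Gaa (0.63). In FeO 4 rose, Pgm1 (0.73), Ugp2 (0.65), Gyg (1.23) and Pygl (1.07), of which Ugp2 was not called without FeO 1 (0.65, adjusted p = 0.0508). Without Spns1 KO 4, 6 glycogen enzymes were upregulated in Spns1 KO, with Pgm1 (0.66), Ugp2 (0.60), Gyg (0.64) and Gbe1 (0.69) added (adjusted p = 0.0172, 0.0399, 0.0205 and 0.0233).

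Of 13 transporters of glucose, lactate and pyruvate, 4 rose in Spns1 KO, and 4 rose and 3 fell in FeO. The sodium-coupled glucose transporter Slc5a2 (SGLT2), also one of the proximal tubule markers, rose in Spns1 KO by 1.28 and was at -0.72 in FeO (adjusted p = 0.137). It measured 16.3, 91.9, 85.0 and 102 CPM in FeO 1 to 4 and 77.5 to 172 CPM in WT, and stood at -0.37 (adjusted p = 0.242) without FeO 1. Slc2a2 (GLUT2), which passes glucose to the blood side of the proximal tubule, fell in FeO by 1.04 on the log2 scale, and the lactate transporter Slc5a12, another of those markers, fell by 1.46. Slc5a1 (0.70 and 0.90), Slc5a10 (1.05 and 1.11) and the pyruvate carrier subunit Mpc2 (0.86 and 0.84) rose in both, and Slc2a4 rose in FeO (0.87), a call lost without FeO 1 (0.53, adjusted p = 0.0729). Slc2a3 passed in Spns1 KO without Spns1 KO 4 (-0.73, adjusted p = 0.021).

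Of 20 regulators of these genes, 1 fell in Spns1 KO, and 12 fell and 1 rose in FeO. Ppargc1a, a coactivator of gluconeogenic and mitochondrial genes, fell in both, by 0.87 in Spns1 KO and 0.93 in FeO on the log2 scale (standard error 0.20 in each, adjusted p = 0.00615 and 0.00195). The forkhead factors Foxo1 and Foxo3 stood at -1.47 and -1.45 in FeO, Klf15 at -1.32, the glucocorticoid receptor Nr3c1 at -0.78 and the CREB coactivator Crtc2 at -0.51, all called. Txnip, an inhibitor of glucose uptake, and Mlxip, a glucose sensor, were at -1.53 and -1.24 in FeO. Also called in FeO were Arnt (-0.88), the partner of the hypoxia-inducible factors, Sik1 (-1.13), Myc (-1.03) and Nr4a1 (-2.15), while Creb3l1 rose (0.83). Without FeO 1, 7 of the 20 fell in FeO and 2 rose, and the calls of Klf15 (-1.09), Crtc2 (-0.42), Txnip (-1.30), Sik1 (-0.86) and Nr4a1 (-2.05) were lost (adjusted p = 0.0571, 0.111, 0.0529, 0.0992 and 0.054).

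In Spns1 KO, replicate 4 stood apart from the others for several of these regulators. Foxo3 measured 122, 134, 130 and 443 CPM in Spns1 KO 1 to 4 and 377 to 434 CPM in WT. Foxo1 measured 68.1, 64.7, 65.1 and 137 CPM against 116 to 144 CPM. Replicates 1 to 3 lay below every WT library for both genes, while Spns1 KO 4 lay above WT for Foxo3 and inside its range for Foxo1. With all libraries, Foxo1 (-0.70), Foxo3 (-1.01), Klf15 (-1.02), Txnip (-1.20) and Mlxip (-0.67) did not pass (adjusted p = 0.0761, 0.0677, 0.0769, 0.07 and 0.0657). Without Spns1 KO 4 all of them passed, at -1.05, -1.70, -1.57, -1.60 and -1.10 (adjusted p = 0.00549, 0.000685, 0.005, 0.0196 and 0.000381). Arnt (-0.55, adjusted p = 0.00745) and Nr4a1 (-1.63, adjusted p = 0.00798) passed as well, so that 8 of the 20 fell. Without FeO 1, Foxo1 (-0.68), Hif1a (-0.52) and the partners Got2 (0.66) and Pgd (0.69) passed in Spns1 KO (adjusted p = 0.0441, 0.0494, 0.0446 and 0.0426). In FeO, Epas1 (-0.51) and Pygm (-0.81) passed without Spns1 KO 4 (adjusted p = 0.0478 and 0.0436) and Mlx (0.60, adjusted p = 0.0328) without FeO 1, where Eno4 was no longer called (1.02, adjusted p = 0.138). Genes that passed under these settings alone, and Eno4, were named after their values were seen.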

How the data were processed

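Kidney RNA tagged with 4-thiouracil was measured in 13 libraries. The authors deposited estimated counts per gene symbol, without normalization. The submitters' processing notes name bcl2fastq 2.19, kallisto 0.44.0, DESeq2 and GRCm38, whereas the methods describe STAR alignment to mm10 and HTSeq counting, so the counter of these values and its use of strand are uncertain. The values were rounded to whole numbers and tested with edgeR 4.0.16 in R 4.3.3 (quasi-likelihood test, TMM factors, genes kept by filterByExpr, 1 fit of all 13 libraries, Benjamini-Hochberg adjustment). Calls needed an adjusted p under 0.05 and a log2 fold change beyond 0.5, limits taken from the study. No column was left unmapped. Groups came from the sample titles.

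CPM were scaled with TMM factors, and scores used a prior count of 2. TPM used 1 representative transcript per symbol (GENCODE M21, GRCm38), available for 98.3% of genes. Shared sequence was counted as 31-base sequences found in transcripts of other genes. Promoters came from RefSeq (GRCm38.p6) and covered 250 bases before to 50 after the start. All 32 members were named by symbol, and genes of the wider pathway were named when called in either comparison with WT at a mean of at least 100 counts per library. Of these, 1 gene is not reported here. Members, lists and tests were chosen with earlier results of these data known, so lists carry counts and medians and no p. The script was tested on simulated data. Alternatives were other normalizations, no filter, DESeq2 1.42.0, limma-voom (limma 3.58.1), a fit of 2 groups, a replicate block, removal of a length and GC trend, glmTreat and leaving out each library.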

Additional observations from a re-analysis of the deposited data

Results flagged for a closer look

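In 102 groups of 4 or 5 libraries (32 genes, their balance and the mean glycolytic level, in 3 groups), 5 had a library whose gap to its nearest neighbour was a large share of the group's whole range on the log2 CPM scale. Chance gives such a gap in about 1 in 20 groups. Of the 5, 3 were in Spns1 KO 4. Its Pfkfb3 level of 105 CPM stood above the other Spns1 KO libraries with a gap of 0.848 of the range. Its Gpi1 level of 209 CPM stood below them with a gap of 0.946, and its Gapdh level of 543 CPM with a gap of 0.861. In FeO 2, Pgk1 at 124 CPM lay below the other FeO libraries with a gap of 0.887 of the range. In WT 5, Slc2a1 at 123 CPM lay above the other WT libraries with a gap of 0.794.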

How the results depend on the processing

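Over all alternatives the direction of the counts above held, with more members upregulated than downregulated against WT in both models. With glmTreat at a limit of 0.5 there were 3 up and 0 down in Spns1 KO, 7 up and 1 down in FeO and 0 up and 2 down in Spns1 KO against FeO. With a trend on length and GC content removed, 8 were up in Spns1 KO, and the glycolytic medians were 0.36 in Spns1 KO and 0.63 in FeO. With library totals alone, 6 were down in Spns1 KO and its glycolytic median was 0.35. Members down in Spns1 KO numbered 6 with DESeq2, 5 with limma-voom, 1 without the low count filter and 4 in the fit of 2 groups. Of all genes, 1243 were down in Spns1 KO in the edgeR fit used above and 1610 with DESeq2. They numbered 1529 with limma-voom, 793 without the low count filter and 1395 in the fit of 2 groups. Leaving out each library gave 8 to 15 up and 0 to 5 down in Spns1 KO, 14 to 18 up and 1 to 3 down in FeO, and 0 to 2 up and 5 to 8 down in Spns1 KO against FeO. Members down in Spns1 KO numbered 0 without Spns1 KO 1, Spns1 KO 2 or WT 3, 1 without Spns1 KO 3 or WT 5, 4 without FeO 2 and 5 without FeO 1 or Spns1 KO 4. All genes down in Spns1 KO numbered 527 without Spns1 KO 1, 525 without Spns1 KO 2 and 560 without WT 3. They numbered 504 without Spns1 KO 3, 952 without WT 5, 1205 without FeO 2, 1218 without FeO 1 and 2677 without Spns1 KO 4. In several fits the member counts thus moved with those of all genes. Members down in FeO numbered 1 without FeO 1, FeO 3, WT 2 or WT 5, and those up in Spns1 KO against FeO 0 without FeO 1 and 2 without Spns1 KO 4. Over the fits without 1 library, the glycolytic median lay between 0.44 and 0.59 (Spns1 KO) and between 0.53 and 0.88 (FeO). The gluconeogenic median lay between 0.09 and 0.39 (Spns1 KO) and between -0.08 and 0.14 (FeO) over the same fits. The mean of gluconeogenic minus glycolytic genes lay between -0.16 and 0.00 (Spns1 KO) and between -0.78 and -0.30 (FeO). Of 15 calls in Spns1 KO, 8 were kept without Spns1 KO 1 or Spns1 KO 3, and of 20 in FeO, 15 without FeO 1. Of the 77 wider genes, those up in Spns1 KO numbered 11 without Spns1 KO 2 or WT 3, and those down 1 without Spns1 KO 2, 5 without FeO 1 or FeO 2, 6 with limma-voom, 7 in the fit of 2 groups, 9 with DESeq2 and 11 with library totals. All genes up in Spns1 KO numbered 1654 without Spns1 KO 2 and 1745 without WT 3, and those down in these settings are given above.

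Signs changed for some values that were not called. Pkm in Spns1 KO was at -0.14 with the trend removed, -0.11 with library totals and between -0.01 (without WT 1) and 0.11 over the fits without 1 library. Pgm2 in Spns1 KO lay between -0.16 and 0.03 over those fits. In FeO, Pck2 was at -0.04 with library totals, -0.01 with upper-quartile factors, and between -0.10 and 0.14 over the fits without 1 library, with -0.02 without WT 3 and -0.04 without WT 4. With the trend removed, Fbp1 was at -0.09 (0.39 before), Pfkfb1 at -0.25 and Eno3 at -0.11 (0.31 before) in FeO, and Pfkfb1 lay between -0.09 and 0.22 over the fits without 1 library. The cause was not tested.

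Correlations of deviations between libraries of the same replicate number ran from -0.296 to 0.256. Those between libraries of different numbers were not set beside them, so whether the numbers pair the libraries was not tested. With the replicate number as a block, 10 members were up and 1 down in Spns1 KO, 17 up and 3 down in FeO (Hk3 lost and Pgm2 gained), and 1 up and 7 down in Spns1 KO against FeO, and Pgm2 in Spns1 KO was at 0.01.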
